A study of Mus musculus with 4 samples.

Results

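Lgals7, the gene of galectin-7, was described here together with 9 genes of squamous epithelium, Lce3a, Krt5, Krt14, Krt4, Krt13, Trp63, Sfn, Ivl and Dsg3. These 10 genes were read from 11 probe sets that carry a single gene symbol in the platform annotation, of 21789 such probe sets and 19938 genes in the series. Lgals7 and Lce3a were chosen by their intensities in these same arrays, from the pattern between genotypes, so their levels and differences are a description. The other 8 genes were taken as markers of squamous tissue in the dissections. The cells were cut by laser capture from the stomach of adult mice on a C57BL/6 background, and their RNA was hybridised to Mouse Gene 1.0 ST arrays of Affymetrix. The 4 groups were zymogenic cells of mice lacking MIST1 (Mist1-/-), wild-type zymogenic cells, mucous neck cells of mice lacking MIST1, and wild-type mucous neck cells. MIST1, encoded by Bhlha15, is a transcription factor of secretory cells. The labels name the knockout and describe no further allele or agent. Zymogenic cells were recognised by place, in the corpus below the cells that the lectin GS-II stains, and by lacking the outline of parietal cells. Each group was 1 array, made from about 100 ng of RNA pooled over several dissections and mice, from 5 MIST1-null and 4 wild-type mice with 2 caps per mouse in the series. The labels do not say which mice made up each pool.

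Squamous epithelium is layered. Its basal cells hold keratins 5 and 14 and depend on the transcription factor p63, the product of Trp63, and its upper cells change to other keratins and build a cornified envelope from proteins such as involucrin and the late cornified envelope family. In the mouse stomach such tissue lines the forestomach, while the gastric corpus, from which neck and zymogenic cells come, is lined by a single cell layer that holds keratins 8 and 18. Galectin-7 is a small sugar-binding protein known mainly from stratified epithelia, and in human cells its gene is known to be raised by p53.

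MIST1 belongs to the bHLH proteins, which bind E-boxes, short DNA words of the form CANNTG. The RefSeq promoter table (GRCm38.p6) held 7 of the 10 genes. The 250 bases before the start of Lgals7 (chr7:28864136-28864385, plus strand) and of Lce3a (chr3:92926231-92926480, minus strand) were taken from that table and are shown because these were the 2 genes that differed between genotypes by 2-fold or more. The extent that RefSeq lists for Lgals7 begins further upstream than the start used in the promoter table, so its stretch lies within that extent, and distances below are from the table's start. Capitals mark matches to CANNTG on either strand.
Lgals7: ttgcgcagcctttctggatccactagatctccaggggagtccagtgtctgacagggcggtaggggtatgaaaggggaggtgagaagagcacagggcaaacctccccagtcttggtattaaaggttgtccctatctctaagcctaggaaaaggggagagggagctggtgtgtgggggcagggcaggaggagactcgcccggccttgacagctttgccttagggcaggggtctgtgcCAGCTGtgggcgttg
Lce3a: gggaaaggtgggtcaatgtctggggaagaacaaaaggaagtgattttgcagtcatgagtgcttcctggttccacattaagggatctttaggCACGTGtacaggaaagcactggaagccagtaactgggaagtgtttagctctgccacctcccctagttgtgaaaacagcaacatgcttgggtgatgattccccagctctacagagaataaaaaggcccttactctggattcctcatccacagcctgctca
Each stretch held 1 E-box. That of Lgals7 reads CAGCTG and begins 15 bases before the start, and that of Lce3a reads CACGTG and begins 159 bases before it. An E-box of the form CANNTG was present in 66.2% of 32851 such stretches in the table, so a match is common. The narrower word CAGCTG, which is one form of CANNTG, was present in 13.0% of them. Neither stretch held CATATG, found in 3.46% of all, or TATAAA, found in 12.4%, on either strand. These matches describe letters in a window and say nothing of binding.

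The values are array intensities on a linear scale as deposited. Signal over background is unknown, since detection calls were not used here. A gene was therefore called detectable in a comparison if at least 1 of its 2 values was 43.7 or more, the median over all single-gene probe sets and arrays, which sets a size and does not measure background. As each group is a single array, the differences below have no replicate check, no test and no p-value, and the order of a gene's arrays cannot be set against any spread. Fewer cells of a type and less RNA per cell cannot be told apart in such pools. Array medians ran from 37.9 to 40.9. Bhlha15 read 22.0 in MIST1-null and 149.8 in wild-type zymogenic cells, and 20.2 in MIST1-null and 59.7 in wild-type neck cells, the direction that the labels give. Where its probes lie relative to the deletion is not stated in the labels. Mucous neck markers were mostly as labelled, and zymogenic markers only in part. Of 6 zymogenic markers, 4 were detectable between cell types in each genotype. Zymogenic cells had at least 2-fold more of 2 of these, and 1, the pepsinogen gene Pga5, was lower, by a log2 difference of -6.53 in MIST1-null and -5.45 in wild-type mice. The pepsinogen gene Pgc differed by 0.29 in MIST1-null and 0.20 in wild-type mice. Of 5 of the 6 mucous neck markers, zymogenic cells had at least 2-fold less in each genotype. Over all detectable genes, zymogenic cells had at least 2-fold more of 4.90% and less of 4.80% in MIST1-null mice. In wild-type mice these shares were 6.27% and 6.78%. The chitinase gene Chia1 read 9022 and 8209 in MIST1-null and wild-type zymogenic cells, against 1494 and 1806 in MIST1-null and wild-type neck cells. The gland mucin gene Muc6 read 20.7 and 26.7 in MIST1-null and wild-type zymogenic cells, against 2980.3 and 2511 in MIST1-null and wild-type neck cells.

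Lgals7 differed more between arrays than any other of the 10 genes. Its intensity was 304 in MIST1-null zymogenic cells, 48.4 in wild-type zymogenic cells, 4.58 in MIST1-null neck cells and 122 in wild-type neck cells. The genotype difference thus had opposite signs in the 2 cell types. It was highest in the zymogenic cells without MIST1 and lowest in the neck cells without MIST1, and both wild-type arrays lay between these.

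**Figure D1:**
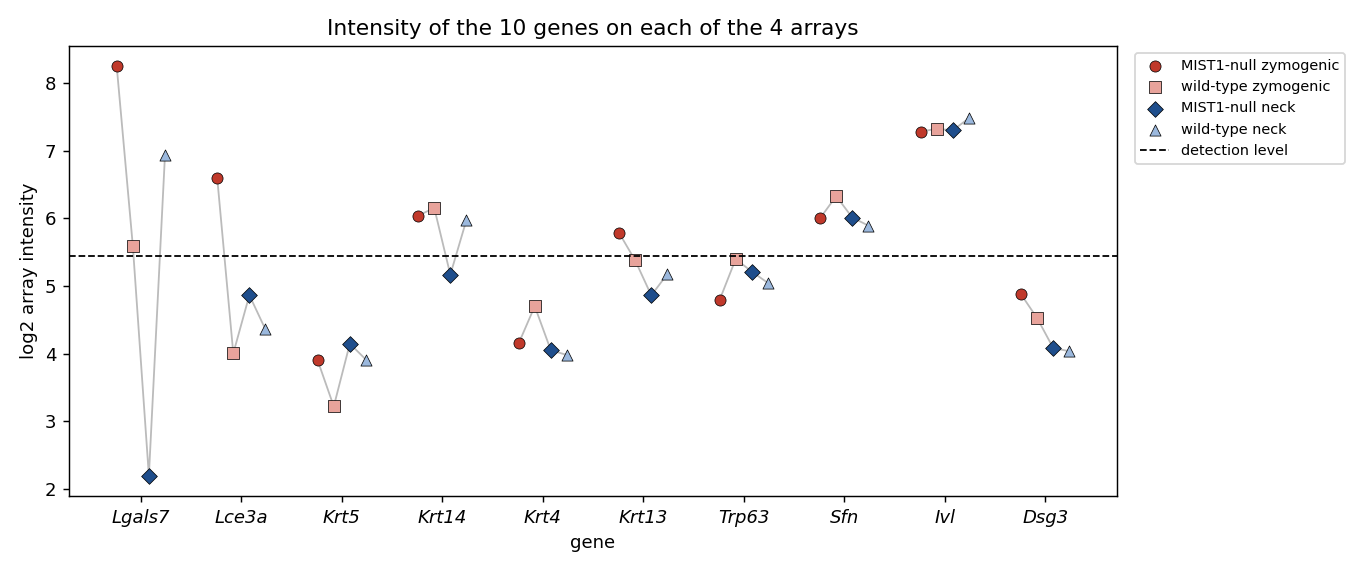
Log2 array intensity of the 10 genes, with 1 point per array and the detection level (43.7, log2 5.45) as a dashed line; grey lines join the arrays of a gene. Lgals7 spans 6.05 log2 units and Lce3a 2.59, while the other 8 genes span 0.20 to 0.99.

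In zymogenic cells the log2 difference of Lgals7, MIST1-null minus wild-type, was 2.65, or 6.27-fold. Both values were at or above the detection level, and 5 of 11826 detectable genes had as high a difference, Lgals7 included. In neck cells the difference was -4.73, the lowest of 10966 detectable genes. The MIST1-null neck value of 4.58 was among the lowest on that array, where 39 of 21789 single-gene probe sets read as low or lower, so the size of this difference is not firm. With a pseudocount of 32 added before the log, Lgals7 differed by 2.06 in zymogenic cells and by -2.07 in neck cells. With all values under the detection level set to it, they were 2.65 and -1.48.

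Set against neck cells, zymogenic cells had more Lgals7 in MIST1-null mice and less in wild-type mice. The log2 difference, zymogenic minus neck, was 6.05 in MIST1-null mice, the highest of 11322 detectable genes, and -1.33 in wild-type mice. The size and rank of the first rest on the neck value of 4.58, and it was 3.20 with the pseudocount and 2.80 with values under the level set to it. The second was -0.94, under 2-fold, with the pseudocount. These comparisons share their arrays with the genotype comparisons and are other views of the same 4 values. The genotype difference in zymogenic cells minus that in neck cells was 7.38, which was the highest of the 9857 genes detectable in both comparisons. It rests on the same low value and was 4.14 with the pseudocount and 4.13 with values under the level set to it. At least 2-fold higher in MIST1-null zymogenic and at least 2-fold lower in MIST1-null neck cells were 15 of these 9857 genes, or 0.152%. Besides Lgals7 they included the sialyltransferase gene St6gal1, at 2.50 in zymogenic and -1.22 in neck cells, and the tubulin gene Tubb2b, at 1.59 and -1.30 in the same order. Their MIST1-null neck values, 31.6 and 29.1, were under the detection level, as was St6gal1 at 15.0 in wild-type zymogenic cells. The sizes of these differences, and so their place among the 15, are not firm.

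**Figure D2:**
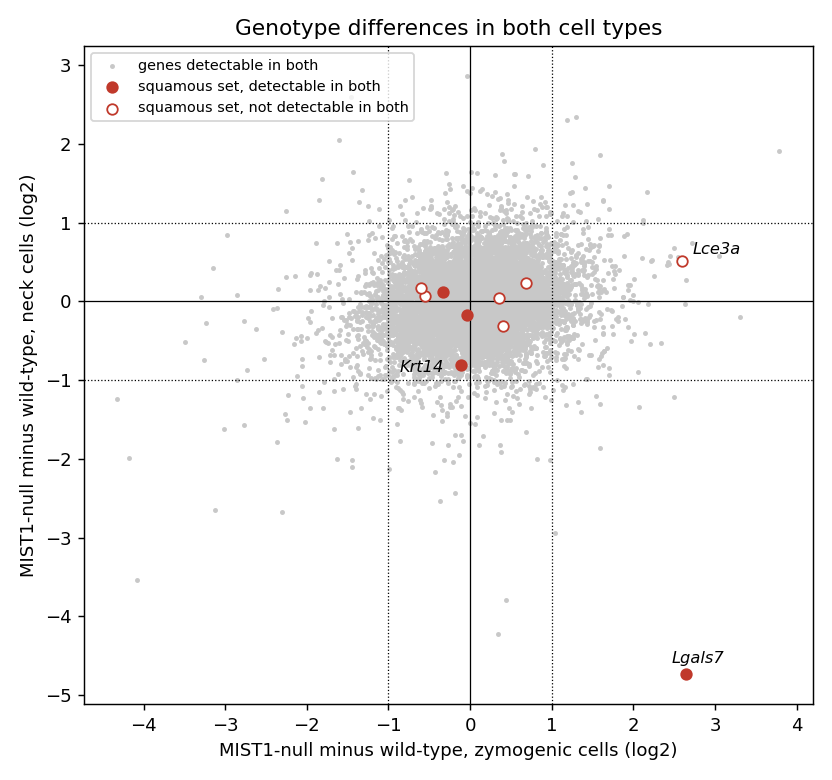
Genotype differences (log2, MIST1-null minus wild-type) in zymogenic cells (x) and in neck cells (y), with 1 grey point for each of the 9857 genes detectable in both comparisons and the squamous set in red (filled where detectable in both, open where not); dotted lines mark 2-fold. Lgals7 lies at 2.65 and -4.73, the lowest point of the plot, and Lce3a at 2.59 and 0.51.

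Lce3a, a gene of the late cornified envelope proteins of the outer skin layers, was high on 1 array. Its intensity was 96.8 in MIST1-null zymogenic cells, 16.1 in wild-type zymogenic cells, 29.2 in MIST1-null neck cells and 20.5 in wild-type neck cells. Only the first of these reached the detection level. The log2 difference between genotypes was 2.59 in zymogenic cells, with 9 of 11826 detectable genes as high, Lce3a included. It was 1.42 with the pseudocount and 1.15 with values under the detection level set to it. In neck cells it was 0.51 between 2 values under that level. Between cell types it was 1.73 in MIST1-null and -0.35 in wild-type mice.

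The Lce3 genes are close copies of each other and lie side by side. A further probe set, which the annotation gives to 6 Lce3 genes, Lce3a among them, read 56.2 in MIST1-null zymogenic cells, 66.6 in wild-type zymogenic cells, 70.5 in MIST1-null neck cells and 85.0 in wild-type neck cells. It was lowest on the array where the Lce3a probe set was highest, with a genotype difference of -0.24 in zymogenic cells. The 2 probe sets that can read Lce3a therefore disagreed in direction. Among single-gene probe sets, the next gene, Lce3b, read 44.6 in MIST1-null zymogenic cells against 60.1 in wild-type zymogenic cells. Lce3b read 42.6 in MIST1-null neck cells against 60.6 in wild-type neck cells. Of the 18 other measured genes of the late cornified envelope cluster, 6 were detectable between genotypes in zymogenic cells, and their median was -0.03. Of these 6, 0 were at least 2-fold apart, where 10.4% of all detectable genes were, so this count is near the background. In neck cells 8 of the 18 were detectable, with a median genotype difference of -0.41 beside 0.00 over all detectable genes. Zymogenic minus neck, the median was 0.11 over 5 genes in MIST1-null and -0.07 over 9 genes in wild-type mice.

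The second cornified envelope gene of the set, Ivl, encodes involucrin, an early protein of the envelope. Ivl read 156 in MIST1-null zymogenic cells, 160.3 in wild-type zymogenic cells, 158 in MIST1-null neck cells and 179 in wild-type neck cells. It was detectable on all 4 arrays and spanned 0.20 log2 units, the least of the 10 genes.

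Keratins 5 and 14 pair with each other in basal cells. Krt5 read 14.9 in MIST1-null zymogenic cells, 9.32 in wild-type zymogenic cells, 17.7 in MIST1-null neck cells and 15.1 in wild-type neck cells, all under the detection level. Its partner Krt14 read 65.9 in MIST1-null zymogenic cells, 71.2 in wild-type zymogenic cells, 36.0 in MIST1-null neck cells and 62.9 in wild-type neck cells. Krt14 was thus under the level on the MIST1-null neck array alone, with a genotype difference of -0.81 in neck and -0.11 in zymogenic cells. The array on which Krt14 was lowest was that on which Krt5 was highest.

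Keratins 4 and 13 pair in the upper cells of the mouth, oesophagus and forestomach. Krt4 read 17.8 in MIST1-null zymogenic cells, 26.0 in wild-type zymogenic cells, 16.6 in MIST1-null neck cells and 15.8 in wild-type neck cells. Krt13 read 55.1 in MIST1-null zymogenic cells, 41.6 in wild-type zymogenic cells, 29.1 in MIST1-null neck cells and 36.2 in wild-type neck cells. Krt4 was under the detection level on every array and Krt13 above it on the MIST1-null zymogenic array alone. The genotype difference of Krt13 was 0.41 in zymogenic cells and -0.32 in neck cells, so its signs were those of Lgals7 at sizes under 2-fold.

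Trp63, the gene of p63, read 27.8 in MIST1-null zymogenic cells, 42.2 in wild-type zymogenic cells, 37.1 in MIST1-null neck cells and 33.1 in wild-type neck cells. Dsg3, the gene of desmoglein-3, an adhesion protein of stratified epithelium, read 29.4 in MIST1-null zymogenic cells, 23.0 in wild-type zymogenic cells, 17.0 in MIST1-null neck cells and 16.4 in wild-type neck cells. Both genes were under the detection level on all 4 arrays, and the wild-type zymogenic value of Trp63 lay just under it. Sfn encodes 14-3-3 sigma, a cell cycle regulator of stratified epithelia that p53 is known to raise in human cells. Its brighter probe set read 64.1 in MIST1-null zymogenic cells, 80.4 in wild-type zymogenic cells, 64.6 in MIST1-null neck cells and 59.5 in wild-type neck cells. A dimmer probe set of Sfn read 21.1 to 25.2 over the 4 arrays. Between genotypes the brighter one differed by -0.33 in zymogenic cells and 0.12 in neck cells, and the dimmer one by -0.25 and -0.17, so the probe sets differed in sign in neck cells.

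**Figure D3:**
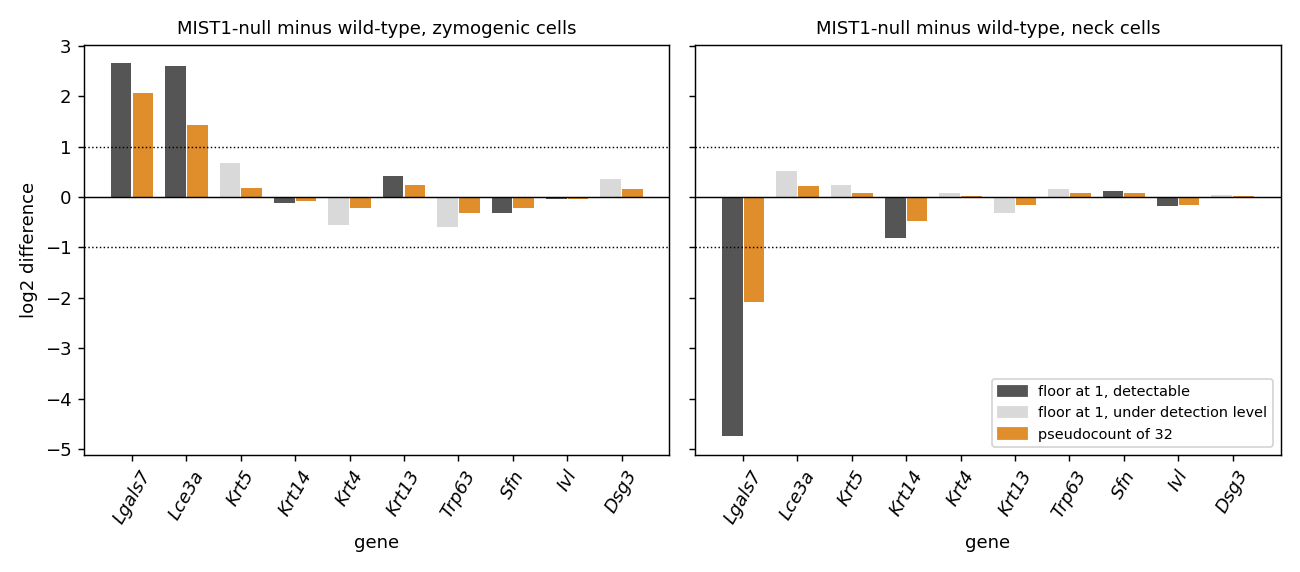
Log2 differences, MIST1-null minus wild-type, of the 10 genes in zymogenic cells (left) and neck cells (right), with a floor at an intensity of 1 (dark where detectable, light where both values are under the detection level) and with a pseudocount of 32 (orange); dotted lines mark 2-fold. Bars past 2-fold belong to Lgals7 in both panels and to Lce3a in zymogenic cells.

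Of the 10 genes, 2 were detectable on all 4 arrays, 4 on some and 4 on none. By array, 6 of the 10 reached the level in MIST1-null zymogenic cells, 4 in wild-type zymogenic cells, 2 in MIST1-null neck cells and 4 in wild-type neck cells. Over all genes the shares were 50.7%, 50.9%, 47.7% and 49.5% in the same order. In zymogenic cells, 2 of the 6 detectable genes, Lgals7 and Lce3a, were at least 2-fold higher in MIST1-null mice, where 5.15% of all detectable genes were, and 0 were at least 2-fold lower, where 5.23% were. In neck cells, 0 of 4 were higher by 2-fold and 1, Lgals7, was lower, against 1.89% and 2.40% of all detectable genes. Between cell types in MIST1-null mice, zymogenic cells had at least 2-fold more of 2 of 6, again Lgals7 and Lce3a, and at least 2-fold less of 0, against 4.90% and 4.80% of all detectable genes. In wild-type mice 0 of 4 were higher and 1, Lgals7, was lower, against 6.27% and 6.78%. The choice of these 2 genes used their values on these arrays, so nothing is read from the counts that hold them. In neck cells the share of higher genes among those 2-fold apart was 44.0%, and it was 54.5% after median centring of the arrays.

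The other 8 genes served to look for squamous tissue in the dissections. Of these, 4 were detectable in zymogenic cells and 3 in neck cells, and 0 were 2-fold apart between genotypes in either, where 10.4% and 4.29% of all detectable genes were, so a count of 0 among so few is near the background. Their median difference was -0.08 in zymogenic and -0.18 in neck cells, beside 0.04 and 0.00 over all detectable genes. Between cell types, 0 of 4 in MIST1-null and 0 of 3 in wild-type mice were 2-fold apart, against 9.70% and 13.1% of all detectable genes. The intensities of the 8 genes summed to 431 in MIST1-null and 454 in wild-type zymogenic cells. In neck cells they summed to 376 in MIST1-null and 417 in wild-type mice. Ivl alone gave 156, 160.3, 158 and 179 on these arrays in the same order. The sum was lowest where Lgals7 was lowest, and Lgals7 was highest on the array with the second highest sum. The detection level was reached by 4, 3, 2 and 3 of the 8 genes in the same order. That was most where Lgals7 was highest and fewest where it was lowest. Over all genes the shares at the level were 50.7%, 50.9%, 47.7% and 49.5%, also lowest in MIST1-null neck cells. The count of 4 against 3 in zymogenic cells rests on Krt13, at 55.1 in MIST1-null and 41.6 in wild-type cells. Krt14, Sfn and Ivl were each higher in wild-type zymogenic cells. Nothing is read from counts among so few.

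Other keratins of stratified epithelium were measured with 18 genes, the 4 above included, of which 10 were under the detection level on all 4 arrays. The 18 summed to 886 in MIST1-null and 864 in wild-type zymogenic cells, and to 629 in MIST1-null and 748 in wild-type neck cells. This sum was highest and lowest on the same arrays as Lgals7, with the wild-type arrays in the other order. Of the 14 that are not in the set, 6 were detectable in zymogenic cells between genotypes, and 1 was 2-fold apart, against 10.4% of all detectable genes. This was Krt10, a keratin of upper skin layers, at 45.4 in MIST1-null and 119 in wild-type zymogenic cells, a difference of -1.39. In neck cells 0 of 4 were 2-fold apart, against 4.29%. The median difference of the detectable ones was 0.21 in zymogenic and -0.22 in neck cells, beside 0.04 and 0.00 over all detectable genes. Zymogenic minus neck, their median was 0.60 in MIST1-null and 0.21 in wild-type mice, beside 0.05 and 0.02. Between cell types in MIST1-null mice, Krt2 and the stress keratin gene Krt6a were higher in zymogenic cells by 1.54 and 1.11, with 60.2 against 20.8 and 55.0 against 25.4. With the pseudocount none of the 18 was 2-fold apart in either of the comparisons that had such a gene. The keratin genes Krt8 and Krt18 of single-layered epithelium were detectable on every array, with Krt8 at 372, 296, 449 and 565 and Krt18 at 141, 149.99, 180.1 and 233 in MIST1-null zymogenic, wild-type zymogenic, MIST1-null neck and wild-type neck cells. The duct and progenitor keratin gene Krt19 read 63.2 in MIST1-null and 17.1 in wild-type zymogenic cells, a difference of 1.89.

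The cornified envelope and the enzymes that build it were looked at as a list. Of 37 measured genes, 20 were under the detection level on every array. In zymogenic cells 17 were detectable between genotypes, 1 was at least 2-fold higher and 1 lower, with a median of 0.21 beside 0.04 over all genes. The share past 2-fold is near the 10.4% of all detectable genes. The small proline-rich gene Sprr2b differed by 1.04, with 44.8 in MIST1-null and 21.7 in wild-type zymogenic cells, and Crnn, the gene of cornulin, by -1.45, with 20.6 against 56.3. In neck cells 0 of 12 were 2-fold apart, against 4.29%, and the median was -0.22 beside 0.00. Between cell types the medians were 0.27 in MIST1-null and -0.04 in wild-type mice. With Ivl, which is on the list, the medians had the signs of Lgals7 at sizes far under 2-fold. Without Ivl the wild-type median between cell types was 0.02, and the others kept their signs. The 37 genes summed to 1802 in MIST1-null and 1645 in wild-type zymogenic cells, and to 1518 in MIST1-null and 1663 in wild-type neck cells. These sums had the array order of Lgals7. Between cell types in MIST1-null mice, Sprr1a, a small proline-rich gene that is also known to be raised by injury, was higher in zymogenic cells by 1.79, with 155 against 44.8. Of 18 genes of the oesophagus and forestomach lining, 14 were under the level on every array, and 1 of 4 detectable in zymogenic cells, the ammonium channel gene Rhcg, differed by 2-fold, at -1.02.

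Desmosomes join epithelial cells of all kinds. Of 13 measured desmosome genes, 7 were detectable between genotypes in zymogenic and in neck cells and 0 were 2-fold apart in either, against 10.4% and 4.29% of all detectable genes, so these counts are near the background. Desmoplakin, Dsp, read 236.5 in MIST1-null and 200.5 in wild-type zymogenic cells, and 193 in MIST1-null and 247 in wild-type neck cells. Dsg2, the desmoglein of simple epithelia, was 1.02 higher in zymogenic than in neck cells of MIST1-null mice, with 244 against 120.4. Of 15 regulators of squamous epithelium, 11 were detectable, and the same shares apply. In zymogenic cells 1 was 2-fold apart between genotypes, Grhl3, a factor of epidermal barrier formation, at 1.17 with 68.5 in MIST1-null and 30.4 in wild-type cells. In neck cells 0 were. Klf5, a factor of basal and proliferating epithelial cells, was lower in zymogenic than in neck cells by a log2 difference of -2.86 in MIST1-null mice and of -2.90 in wild-type mice. Between genotypes Klf5 differed by 0.16 in zymogenic cells and 0.11 in neck cells.

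The other galectins varied less than Lgals7. Of 10 measured galectin genes, all were detectable in every comparison. Apart from Lgals7, 1 of 9 was at least 2-fold higher in MIST1-null than in wild-type zymogenic cells, Lgalsl, a galectin-like gene, at 1.34 with 218.5 against 86.3. Lgals2, known from the gut lining, was lower by -1.19, with 51.7 against 118. Over all detectable genes 5.15% were higher and 5.23% lower by 2-fold. In neck cells 0 of 9 were 2-fold apart, against 4.29% of all detectable genes, with Lgalsl at -0.22. Lgals9, a galectin of immune and epithelial cells, differed by 0.95 in zymogenic and -0.27 in neck cells between genotypes, and between cell types by 0.08 in MIST1-null and -1.14 in wild-type mice. Lgalsl, Lgals9 and Lgals4 had the signs of Lgals7 in all 4 comparisons. Lgals1, known from stromal and muscle cells, read 1089 in MIST1-null zymogenic cells, 760 in wild-type zymogenic cells, 250.01 in MIST1-null neck cells and 318 in wild-type neck cells, so it was higher in zymogenic than in neck cells in both genotypes, by 2.12 in MIST1-null and by 1.26 in wild-type mice. Lgals4, the next measured gene to Lgals7 on its chromosome and known from the gut lining, ran from 46.0 to 56.9.

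Genes that p53 is known to raise were set beside Lgals7 and Sfn. Of 17 measured, 12 were detectable between genotypes in zymogenic cells, 0 were at least 2-fold higher and 2 lower, against 5.15% and 5.23% of all detectable genes, with a median of -0.30 beside 0.04 over all genes. The lower ones were the kinase gene Plk2, at -1.32, and Eda2r, at -1.20. In neck cells 0 of 11 were 2-fold apart, against 4.29% of all detectable genes, and the median was 0.07. Sfn is among the 17 genes, and without it the medians were -0.27 in zymogenic and -0.03 in neck cells. Cdkn1a, Bax and Gdf15 were on the list but not among the genes measured. Mdm2, which p53 raises and which degrades p53, differed by 0.24 in zymogenic and 0.07 in neck cells. All 7 measured 14-3-3 genes, Sfn included, were detectable in all 4 comparisons, and 0 were 2-fold apart. Of 16 measured hair keratin genes, 6 and 4 were detectable between genotypes in zymogenic and in neck cells. Between cell types 5 were in MIST1-null and 4 in wild-type mice, and 0 were 2-fold apart in any comparison. Over all detectable genes the shares were 10.4% and 4.29% between genotypes and 9.70% and 13.1% between cell types. Counts of 0 among so few are near the background. Of 8 measured genes of basal attachment, such as integrins and laminins, 7 were detectable between genotypes in zymogenic and 6 in neck cells. In both, 0 were 2-fold apart, again near the shares above. Between wild-type cell types 1 of 6 detectable, the integrin gene Itga6, was lower in zymogenic cells, by a log2 difference of -1.32.

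Many of these list genes were near the detection level, where the scale matters. With the pseudocount, Krt10, Krt19, Sprr2b, Crnn, Rhcg, Grhl3, Plk2, Eda2r and Lgals2 were under 2-fold between genotypes in zymogenic cells, and so was Dsg2 between cell types in MIST1-null mice. Lgalsl, at 1.08 in zymogenic cells, Sprr1a, at 1.28 between cell types in MIST1-null mice, and Lgals1 and Klf5 between cell types in both genotypes were still past 2-fold.

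The chromosomal neighbours of Lgals7 differed less between arrays. The nearest measured genes in RefSeq order were Hnrnpl, Ech1 and Lgals4 on one side and Gm10648, Capn12 and Actn4 on the other. Their genotype differences ran from -1.49 for Gm10648 to 0.85 for Ech1, a mitochondrial enzyme gene, in zymogenic cells, and from -0.42 to 0.14 in neck cells. Lgals4, Capn12 and Actn4 had the signs of Lgals7 in all 4 comparisons at smaller sizes, and Ech1 differed by -1.35 between wild-type cell types, beside -1.33 for Lgals7. Around Lce3a, the genes Lce1k, Kprp, Lce1l, Lce3b, Lce3c and Lce3e differed by -0.53 to 0.17 in zymogenic cells.

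The genes nearest to Lgals7 in pattern were Fam166b, Cd53, Sst, S100a4 and Tubb2b, by the Euclidean distance between log2 values centred on each gene's mean over the 4 arrays, among 6201 genes whose highest value reached the 75th percentile. The distances ran from 1.73 to 2.75. Fam166b read 87.3 in MIST1-null zymogenic cells, 64.5 in wild-type zymogenic cells, 4.91 in MIST1-null neck cells and 68.3 in wild-type neck cells. Cd53, a membrane protein gene of leukocytes, read 72.1, 56.7, 6.30 and 118 in the same order, and Sst, the hormone gene of gastric D cells, read 2686, 2079, 251 and 885. What these share with Lgals7 is a low value on the MIST1-null neck array. With the pseudocount, 2 of these 5, Fam166b and Tubb2b, were again among the nearest 5. Nearest to Lce3a were Anxa1, an annexin gene, Nme6, the heat shock protein gene Hspa4l, the Krüppel-like gene Klf7 and Rgs22, at distances from 0.38 to 0.73. Anxa1 read 115 in MIST1-null zymogenic cells, 22.8 in wild-type zymogenic cells, 28.9 in MIST1-null neck cells and 26.5 in wild-type neck cells.

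Markers of some other cells, not of all, were also lowest on the array where Lgals7 was lowest. The 7 endocrine markers, all detectable on some array, summed to 12973 in MIST1-null zymogenic cells, 8929 in wild-type zymogenic cells, 3788 in MIST1-null neck cells and 5864 in wild-type neck cells. The 9 fibroblast and smooth muscle markers, of which 7 reached the level on some array, summed to 1409, 1276, 359 and 511 in the same order. The 8 immune markers, of which 6 reached it, summed to 432, 503, 223 and 360.5. All 3 sums were lowest in MIST1-null neck cells, and the endocrine and stromal sums were, like Lgals7, highest in MIST1-null zymogenic cells. Unlike Lgals7, they were higher in wild-type zymogenic than in wild-type neck cells. The 8 parietal cell markers summed to 8357, 4652, 9496 and 8855, lowest in wild-type zymogenic cells and highest in MIST1-null neck cells, where Lgals7 was lowest. The 5 surface mucous markers summed to 10762, 8977, 6670 and 6761, with little between the neck arrays. No marker was listed at 0. The part of these cells in the Lgals7 and Lce3a values was not tested. On the array where Lgals7 and Lce3a were highest, 4 of the other 8 genes were above the detection level. These were Krt14 at 65.9, Sfn at 64.1, Krt13 at 55.1 and Ivl at 156, while Krt5, Krt4, Trp63 and Dsg3 were under it.

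**Figure D4:**
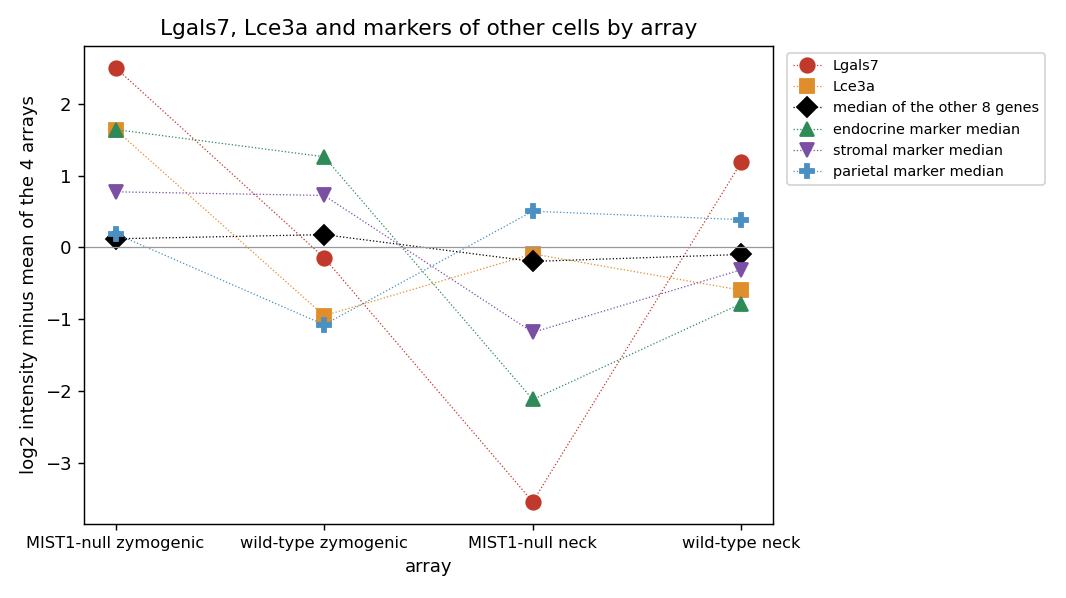
Log2 intensity minus its mean over the 4 arrays for Lgals7, Lce3a, the median of the other 8 genes and the medians of the endocrine, stromal and parietal marker lists; dotted lines only guide the eye. The squamous median stays within 5.02 to 5.39 before centring, while Lgals7 runs from 2.20 to 8.25. Lgals7 was chosen for its pattern, and a median evens out single genes, so this contrast only describes. Singly, the 8 genes had a median span of 0.78, beside 0.72 over all genes.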

How the data were processed

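RNA of laser-captured mucous neck and zymogenic cells from MIST1-null and wild-type mice was hybridised to 4 arrays, 1 per group. The deposited values were intensity values per probe set on a linear scale, from 0.86 to 14251, and were compared by the authors in dChip, per the series design text. How background, probe summary and scaling were handled is not stated in the labels or that text. The platform annotation gave 1 gene to 21789 of 35512 probe sets, several genes to 1621 and no entry to 12102. Where a gene had more than 1 probe set, that of highest mean log2 value was kept (19938 genes). Values under 1 were set to 1 before log2, and 40 to 48 values per array were at or under 1. Detectable means that the higher of 2 values reached 43.7. There was no test, since each group is 1 array, and precision is limited by that number. Computation used Python 3.11.15 with pandas 2.3.3 and numpy 2.4.6, and figures matplotlib 3.10.9. The counting of 2-fold differences was tested on simulated data. Some lowered genes drawn down to the detection level were missed, and a second draw, clear of the level, was then added; the test says nothing of genes near or under the level, where most of the 10 lie.

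The genes and the 19 lists were chosen with earlier results of these data known. The text names all 10 genes, list members at least 2-fold apart (up to 4 per list and comparison), up to 2 bright members of a list, 3 measured neighbours on each side and the 5 genes nearest in pattern. Gm, Rik, olfactory and similar symbols were left out of the last. Krt18, Mdm2 and St6gal1 were named after their values were seen. Symbols were matched to RefSeq genes of GRCm38.p6, older names included. Alternatives were a pseudocount of 32, quantile normalization, median centring, the mean over probe sets, a 75th percentile filter, no filter and, chosen after seeing the data, values under the detection level set to it.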

Additional observations from a re-analysis of the deposited data

Results flagged for a closer look

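Lgals7 had genotype differences of opposite sign in the 2 cell types, at a log2 difference of 2.65 in zymogenic and -4.73 in neck cells, MIST1-null minus wild-type. The difference between these was 7.38. Lgals7 was chosen for its pattern between genotypes on these same arrays, so this flag finds again what the choice used and adds no support. Its size rests on the MIST1-null neck intensity of 4.58. With a pseudocount of 32 the neck difference was -2.07 and the difference between cell types 4.14, and with values under the detection level set to it they were -1.48 and 4.13. With 1 array per group this difference was not tested.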

How the results depend on the processing

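All 20 alternative values of the Lgals7 differences kept their sign, and 0 of 160 alternative differences of the other 8 genes reached 2-fold. Much of this was fixed in advance. The pseudocount and the level as floor cannot reverse a sign and can only shrink a difference. The mean over probe sets leaves Lgals7 unchanged, since it has a single probe set. Only quantile normalization and median centring could have reversed a sign of Lgals7. With the pseudocount of 32, Lgals7 differed by 2.06 between genotypes in zymogenic cells, by -2.07 in neck cells and by 3.20 between cell types in MIST1-null mice, and the difference of its genotype differences was 4.14. Lce3a then differed by 1.42 between genotypes in zymogenic cells and by 1.08 between cell types in MIST1-null mice, and 0 of the 10 genes were at least 2-fold lower in wild-type zymogenic than in wild-type neck cells, against 1. With values under the detection level set to it, Lgals7 differed by -1.48 between genotypes in neck cells and by 2.80 between cell types in MIST1-null mice, the difference of its genotype differences was 4.13, and Lce3a differed by 1.15 between genotypes in zymogenic cells. Both settings shrink low values by construction. Values counted as moved where they changed by more than 1.5-fold, since no replicate spread exists. Counts over all genes moved in 27 of 48 cases, under the pseudocount, the level as floor, the 75th percentile filter and no filter, and under neither scaling. Median centring put the median of all detectable genes, zymogenic minus neck in MIST1-null mice, at -0.05, against 0.05. Over the alternatives, genes higher in MIST1-null zymogenic cells numbered 166 to 843, against 609, and lower 179 to 1167, against 619. In neck cells these ran from 28 to 333, against 207, and from 53 to 556, against 263. Zymogenic over neck cells gave 214 to 816 higher, against 555, and 222 to 776 lower, against 543, in MIST1-null mice, and 262 to 1166 higher, against 739, and 314 to 1054 lower, against 799, in wild-type mice. Of 192 list counts 44 moved. No paired analysis was possible because each group has 1 array.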

Other observations

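Values on a single array were looked for after Lgals7 had been seen. On the MIST1-null neck array, 3 of 19938 genes lay in the lowest 1% of single-gene probe sets while the other 3 arrays reached the detection level, and these were Lgals7, Cd53 and Fam166b. The same count was 1, Tmem196, on the MIST1-null zymogenic array and 0 on each of the wild-type arrays. Genes at least 2-fold above all of the other 3 arrays, as Lgals7 and Lce3a were on the MIST1-null zymogenic array, numbered 79 on that array, or 0.782% of the genes that reached the level there. There were 194 on the wild-type zymogenic array (1.91%), 45 on the MIST1-null neck array (0.473%) and 45 on the wild-type neck array (0.456%).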
